A study of Mus musculus with 8 samples.

Results

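Goblet cells are the mucus-making secretory cells of the conducting airways. The 509 cells described here are those that the authors labelled goblet among 40074 lung cells of 8 mice, or 1.27% of all. All mice were Sftpc-CreERT2-mTmG animals on a C57BL/6 background, in which tamoxifen turns on eGFP in cells that express Sftpc while other cells keep tdTomato. All received tamoxifen at 8 to 10 weeks of age, and littermates were then randomised to cigarette smoke (CS, 4 mice) or room air (RA, 4 mice) for 10 months. Cells came from the digested right lung on the day after the last exposure. Before droplet capture, CD45+ and CD45- cells were separated and mixed again at a set ratio, so that the share of a cell type follows this mixing. The transgene marks alveolar type II (AT2) cells, and it does not label goblet cells as such.

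Goblet cells and club cells form the secretory lining of the airway. Club cells carry secretoglobins and xenobiotic-metabolising enzymes, and goblet cells package gel-forming mucins in granules. The main mucin of the resting mouse airway is Muc5b, whereas Muc5ac is known for its rise in allergic or irritated airways. The transcription factor Spdef drives the goblet programme, Agr2 and Ern2 help mucin fold in the endoplasmic reticulum, and Notch signalling between neighbouring cells favours the secretory over the ciliated fate.

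CS mice 1 to 4 gave 23, 55, 51 and 71 goblet cells, and RA mice 1 to 4 gave 40, 107, 137 and 25. The RA mice therefore hold both a small set and the largest ones. The median number of unique molecular identifiers (UMIs) per goblet cell was 31209 to 40617 by mouse under smoke and 25921 to 64068 under room air. Levels are given as the mean over the goblet cells of a mouse after scaling each cell to 10000 transcripts, and n is the number of mice. They hold UMIs of spliced and of unspliced RNA together. The same barcode sequence occurred in more than 1 library for 380 of the 40074 cells, of which 4 were goblet cells. Both CS libraries labelled male (mice 1 and 2) held Xist, the transcript of the inactive X chromosome, in goblet cells at 7.58 and 8.16, with the Y-linked Ddx3y at 0 and 0.0249. Both CS libraries labelled female (mice 3 and 4) held Ddx3y at 0.304 and 0.216, with Xist at 0.0909 and 0.0026. The 4 RA libraries matched their labelled sex, and the sex label enters no comparison below.

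The label went with higher goblet markers. The 16 goblet markers summed to 960 transcripts per 10000 in goblet cells, the highest of all cell types, against 115 in club cells and 1.28 in B cells. Scgb3a1 (567) and Scgb3a2 (246) made up most of this sum. Of the 16 markers, 15 were higher in goblet than in club cells in 8 of 8 mice, and Clca1, a secreted protein of mucous cells, was higher in 7. Some markers were low. In cells thinned at random to 2000 UMIs, Spdef was found in 3.01% of goblet and 1.14% of club cells (means over mice). Muc5ac was found in 4.14% and 0.964% of these cells, and Foxa3 in 5.02% and 0.506%. The 3 leading markers were Scgb3a2, a secretoglobin, at 246 against 89.6 in club cells, Bpifb1, a secreted lipid-binding defence protein, at 35.3 against 0.859, and Muc5b at 14.8 against 1.52. Because the authors named the types from clusters of these same cells, the contrast of goblet with other cells is a description and carries no test.

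Goblet cells kept a high sum of club markers, most of it Scgb1a1. The club markers summed to 3617 in goblet cells and 4199 in club cells. Scgb1a1, the main club cell secretoglobin, took 3440 of 10000 transcripts in goblet cells and 3986 in club cells. Of the 12 club markers, 6 were lower in goblet than in club cells in 8 of 8 mice, and 1 was higher in 8 of 8. Cyp2f2, a cytochrome P450 that activates naphthalene in club cells, stood at 58.7 and 59.1. Across 11946 genes, the goblet profile was nearest to that of club cells (Pearson r = 0.907, log levels over genes that share libraries and are not independent), then to basal cells (0.805). Markers of other lineages were lower than in the types they mark. The AT2 list summed to 17.5 in goblet cells, 29.8 in club cells and 1550 in AT2 cells, with 14.1 ± 7.29 under smoke and 20.9 ± 2.22 under room air (SD, n = 4 each). The ciliated list summed to 7.14 in goblet cells, 17.6 in club cells and 105 in ciliated cells, and ran from 4.64 to 10.3 by mouse under smoke and from 1.99 to 9.49 under room air. The basal list summed to 2.12 against 51.1 in basal cells, with 2.9 ± 1.23 under smoke and 1.34 ± 0.801 under room air (SD, n = 4 each), and the part of these lists in the results below was not tested. The endothelial, immune and fibroblast lists were near 0, at 0.562, 0.165 and 0.270. Doublets were not called anew, and 1032 cells that the authors labelled multiplets or cell cycle were left out.

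Secreted defence proteins made the strongest contrast with all other types. Scgb3a1, a secretoglobin of secretory airway cells, reached 567 in goblet cells and 18.3 in club cells, the next type. Bpifa1, a surface-active defence protein of airway liquid, reached 254 in goblet cells and 12.3 in basal cells, the next type. Reg3g, an antibacterial lectin, stood at 37.1, with 2.37 in basal cells as the next type, and lactotransferrin (Ltf), which binds iron, at 26.4, with 0.820 in the type labelled NG. Tff2, a trefoil peptide secreted with mucus, stood at 16.5, and Gp2, a glycoprotein that binds bacteria, at 1.90. Agr2, the disulfide isomerase of mucin assembly, had 1.75 in goblet cells and 0.222 in ciliated cells, the next type. Clca1, Fut9, Gm37245, Chad, Tacr1 and St8sia6 complete the 15 genes with the highest ratio to the next type.

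Of 1230 genes with a level of at least 1 in goblet or club cells, 547 differed in the same direction in all 8 mice, 158 higher in goblet and 389 higher in club cells. The genes with the largest excess in goblet cells were Bpifa1 (384-fold), Scgb3a1 (31.0-fold), Reg3g (93.8-fold), Bpifb1 (41.1-fold), Ltf (55.9-fold) and Tff2 (22.6-fold), followed by Lyz2 (16.7-fold), Muc5b (9.73-fold), Lypd2 (6.52-fold), S100a6 (8.18-fold), the glutathione transferase Gsto1 (6.62-fold) and the peptidoglycan receptor Pglyrp1 (12.3-fold), in order of the mean log2 difference. Genes higher in club cells were led by Sftpb, a surfactant protein, at 18.3 in club against 3.37 in goblet cells, and by Col23a1, a membrane collagen, at 7.64 against 1.17. Nebl, Atp8a1, Kcnip4, Kctd8, Ralgapa2, B430010I23Rik, Arhgap24, Nckap5, Cacna2d1 and Atxn1 complete the 12. Kctd8, a subunit of GABA(B) receptors, differed by 10.8-fold.

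**Figure D1:**
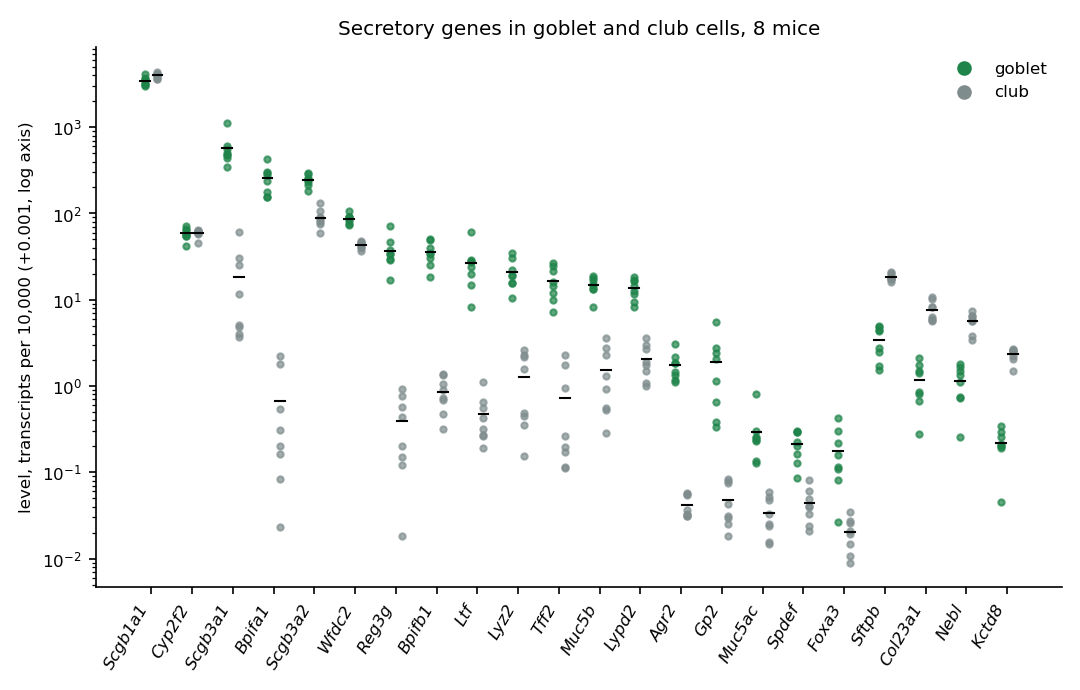
Mean level in transcripts per 10000 (vertical log axis, 0.001 added) of 22 genes, secretory and other, in goblet cells (green) and club cells (grey). Each point is 1 of 8 mice and each bar their mean; Scgb1a1 and Cyp2f2 lie at the same height in both types, while Bpifa1, Reg3g and Gp2 lie well apart.

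The reporter transcripts were low. eGFP stood at 1.05 in goblet cells and 71.2 in AT2 cells, and tdTomato at 0.453. The transcript of eGFP reached at least 1 UMI in 48.9% of the 509 goblet cells and in 116 of 2334 B cells (4.97%), which were shallower (3421 to 4681 UMIs per cell in the median of a mouse).

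Single goblet cells were unequal in what they carried. If each of the 509 cells carried a gene at the same level, the 51 cells highest in it would hold 10.0% of its summed level. For Scgb1a1 this share was 16.2%, for Scgb3a2 20.5% and for Muc5b 27.0%, so that these genes were spread over nearly all cells. For Bpifa1 it was 49.1%, for Gp2 56.7%, for Ltf 60.1% and for Clca1 94.7%. These shares pool mice of different levels, and CS mouse 2 gave 19 of the 51 cells highest in Clca1 and 20 of those highest in Gp2. With the top cells taken within each mouse, the median share was 15.4% for Scgb1a1, 24.9% for Muc5b, 46.2% for Gp2 (35.2% to 61.8% by mouse), 53.8% for Bpifa1 (35% to 75.2%), 55.6% for Ltf (38.5% to 69.0%) and 84.7% for Clca1 (77.0% to 88.7% in the mice with Clca1). The mucin Muc5b reached at least 1 UMI in 484 cells and Muc5ac in 149, and 146 cells carried both. Clca1 reached 1 UMI in 107 cells, of which 42 also carried Muc5ac. Scgb1a1 reached 1 UMI in 508 of the 509 cells, and the 484 cells with Muc5b all carried it.

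**Figure D2:**
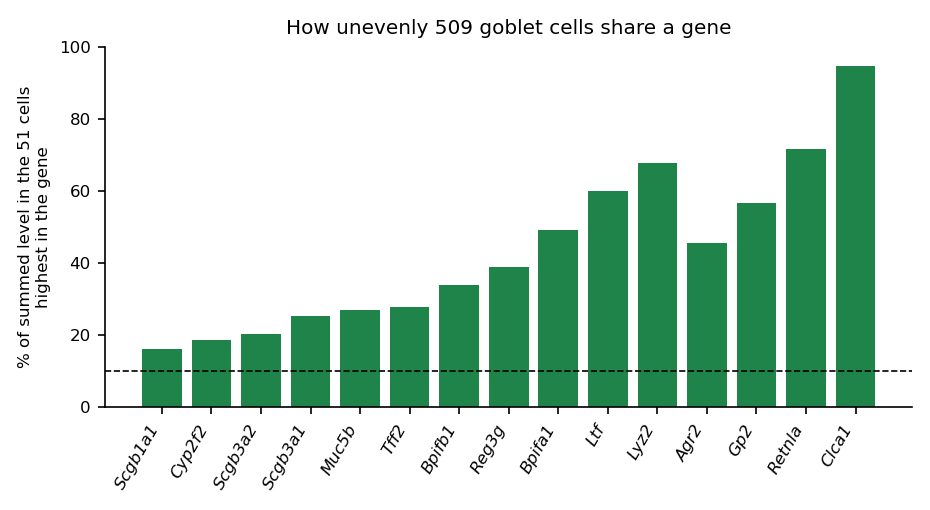
Percent of a gene's summed level (vertical axis) held by the 51 goblet cells highest in it, of 509 cells from 8 mice; the dashed line is the share if all cells were equal. Scgb1a1 is close to the line at 16.2% and Clca1 is far from it at 94.7%.

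The cells highest in Bpifa1, Ltf and Lyz2 overlapped. Among the 51 cells highest in each gene, Ltf and Lyz2 shared 25, Bpifa1 and Ltf shared 24, and Ltf and Krt15, a keratin of basal cells, shared 26. Clca1 shared 17 with Agr2 and 16 with Gp2, while Gp2 shared 0 with Bpifa1, 2 with Ltf and 2 with Lyz2. With the top cells taken within each mouse, Ltf and Lyz2 shared 24, Bpifa1 and Ltf 23, Ltf and Krt15 22, Clca1 and Agr2 15, and Clca1 and Gp2 10. Taken the same way, Gp2 shared 3 with Bpifa1, 2 with Ltf and 2 with Lyz2, and these overlaps were not tested. Lyz2, the lysozyme of macrophages and AT2 cells, was at 0 in 281 goblet cells and at 10 or more per 10000 in 146 (28.7%), a limit chosen after its values were seen, with 45 cells between 5 and 20. These 146 cells carried 570 Bpifa1 against 121 in the other goblet cells, 66.5 Ltf against 9.13, and 9.14 Cyp2a5, a nasal and airway P450, against 2.96. They carried less Retnla (4.05 against 17.9) and less Clca1 (0.840 against 3.5). Of the surfactant genes of AT2 cells, Sftpc was at 3.02 against 0.0585, while Sftpa1 was at 7.06 against 18.1 and Sftpb at 1.56 against 4.15, and their part in this contrast was not tested. The cells made up 39.1%, 34.5%, 25.5% and 22.5% of goblet cells in CS mice 1 to 4 and 27.5%, 29.0%, 29.9% and 24.0% in RA mice 1 to 4, so that every mouse had them.

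The first question of the exposure was whether smoke changed how many goblet cells there were. Goblet cells made up 0.693%, 1.06%, 0.83% and 1.26% of the kept cells in CS mice 1 to 4 and 0.628%, 1.74%, 2.93% and 0.979% in RA mice 1 to 4. The groups overlapped, and RA mice held both the lowest and the highest share. The means were 0.959% ± 0.248 under smoke and 1.57% ± 1.02 under room air (SD, n = 4 each), with an exact two-sided permutation p of 0.343, unchanged by adjustment over 3 shares. Of CD45- cells they were 1.29% ± 0.264 and 2.05% ± 1.29 (SD over 4 mice each, two-sided exact permutation p = 0.343). Of the airway epithelium, counted as goblet, club, ciliated and basal cells, they were 6.98% ± 2.33 and 10.3% ± 5.05 (SD over 4 mice each, two-sided exact permutation p = 0.257, adjusted 0.343). With 4 mice against 4, the smallest p is 0.0286.

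The summed marker levels did not differ beyond the spread between mice. Goblet markers summed to 842 ± 126 under smoke and 1077 ± 301 under room air (SD, n = 4 each), with an exact two-sided permutation p of 0.171, or 0.514 adjusted over 3 sums. RA mouse 1, at 1524, stood above the other 7 mice, and Scgb3a1 alone was at 1127 there. Of the 16 markers, 10 had a positive log2 difference and 6 a negative one, with a median of 0.12. Club markers summed to 3560 ± 254 and 3674 ± 493 (SD over 4 mice each, two-sided exact permutation p = 0.743). Secreted defence proteins took 45.4% ± 2.0 of all transcripts under smoke and 49.9% ± 8.27 under room air (SD over 4 mice each, two-sided exact permutation p = 0.343, adjusted 0.514). In RA mouse 1 they took 61.8%, against 43.2% to 48.8% in the other RA mice.

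Within goblet cells, 21 of 11946 genes differed between CS and RA mice at a Benjamini-Hochberg adjusted limma p under 0.05, 18 higher in CS (0.151% of genes tested) and 3 lower (0.0251%). The genes that rose include secreted proteins (Retnla, Gp2), Notch pathway genes (Notch3, Nrarp) and genes of the daily clock (Rora, Dbp). They also include the cell cycle inhibitor Cdkn1a, the RNA-binding protein Zmat3 and the DNA repair enzyme Mgmt. The smoke-responsive P450 Cyp1b1 is counted among the 18. It was found in at least 10% of goblet cells only in CS mice, so that its call is a description. The clock activator Npas2 and the tight junction protein Cldn22 were among the 3 that fell. In all 21 genes the 4 CS mice lay on 1 side of the 4 RA mice, and over all genes tested every CS mouse lay above every RA mouse in 7.22% and below in 1.27%. The median log2 difference of all genes was 0.03.

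Retnla (chr16:48842551-48844461, plus strand, build GRCm38), a small secreted protein of the resistin family that is known from type 2 immunity, showed the largest rise on the log2 scale of the test. Its level was 12.2, 49.2, 15.4 and 17.2 in CS mice 1 to 4 and 5.76, 3.78, 3.45 and 1.04 in RA mice 1 to 4. All CS mice were above all RA mice, and CS mouse 2 was far above the others. The log2 difference was 2.35 (SE 0.42, limma adjusted p = 0.0391), or 6.70-fold between the group means. Without CS mouse 2 it was 4.25-fold, with a log2 difference of 1.93 (adjusted p = 0.0533). Retnla was also unevenly held, with 71.7% of its summed level in 51 cells of the pooled mice. CS mouse 2 gave 19 of these 51 cells. With the top cells taken within each mouse, Retnla had a median share of 56.4% (42.5% to 81.2% by mouse). In club cells it stood at 11.5, 11.7, 6.90 and 12.7 in CS mice and 19.2, 5.08, 5.55 and 1.93 in RA mice, so that these groups overlapped (log2 difference 0.72, adjusted p = 0.598), and the difference between the cell types did not pass (adjusted p = 0.225).

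Gp2 (chr7:119442537-119459285, minus strand) stood at 2.39, 5.53, 2.76 and 2.03 in CS mice 1 to 4 and at 0.338, 0.377, 1.14 and 0.649 in RA mice 1 to 4. The groups did not overlap, and CS mouse 2 was again the highest. The difference was 1.32 on the log2 scale of the test (SE 0.21, limma adjusted p = 0.0270). The ratio of the group means was 5.07. Club cells held too little Gp2 to be tested, at 0.0470. Gp2 was the only goblet marker of the 16 that passed, against 0.151% of all genes called higher. The CS mice all lay above the RA mice in 2 of the 16 (Gp2 and Spdef), against 7.22% of all genes. They lay below in 1 (Reg3g), against 1.27%. Among goblet cells with Lyz2 of at least 10, its mean was 2.25 in CS and 0.570 in RA mice, and among the other goblet cells 3.69 and 0.642.

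**Figure D3:**
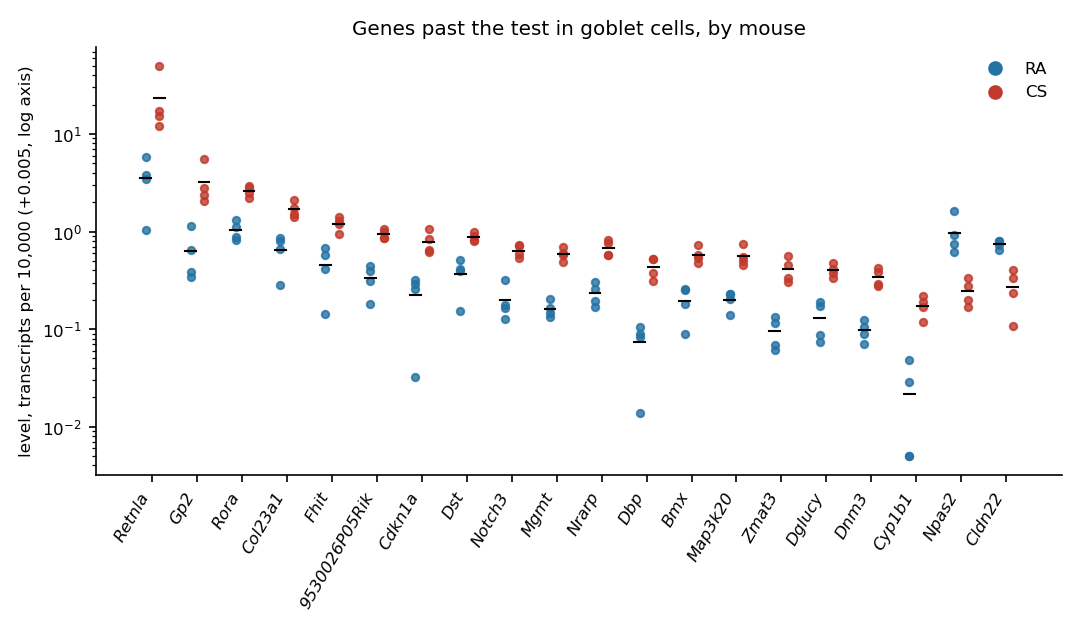
Mean level in goblet cells of each mouse, in transcripts per 10000 (vertical log axis, 0.005 added), for 20 of the 21 genes past the test, with RA mice in blue, CS mice in red and group means as bars. The 18 genes on the left have all 4 CS mice above all RA mice, and Npas2 and Cldn22 on the right have them below.

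A pair of Notch pathway genes rose. Notch3 (chr17:32120820-32166852, minus strand), a receptor of the pathway, had 0.525, 0.584, 0.698 and 0.726 in CS mice 1 to 4 and 0.123, 0.161, 0.316 and 0.173 in RA mice 1 to 4 (log2 difference 0.45, SE 0.07, limma adjusted p = 0.0224). Nrarp, a target gene that feeds back on the pathway, had 0.814, 0.758, 0.564 and 0.568 in CS and 0.190, 0.162, 0.302 and 0.252 in RA mice (0.45, SE 0.07, adjusted p = 0.0248). Neither gene overlapped between the groups. Notch3 also rose in club cells (log2 difference 0.30, adjusted p = 0.0318), while Nrarp did not pass there (0.07, adjusted p = 0.664). For neither gene did the difference between the cell types pass (adjusted p = 0.780 and 0.161). Of 23 tested members of the list of airway transcription factors and Notch genes, these 2 rose and none fell, against 0.151% and 0.0251% of all genes. In 4 of the 23 (Hey1, Notch3, Nrarp and Spdef), against 7.22% of all genes, the CS mice all lay above the RA mice. Hey1, another target, was above in every CS mouse (0.296 ± 0.0526 against 0.124 ± 0.0769, SD, n = 4 each) without passing (limma adjusted p = 0.174).

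Cdkn1a, Mgmt and Zmat3 rose. The first and the last are known targets of p53, and no list of such genes was counted. Cdkn1a (chr17:29090976-29100727, plus strand), the cell cycle inhibitor p21, stood at 0.642, 1.05, 0.834 and 0.607 in CS mice 1 to 4 and at 0.0269, 0.25, 0.311 and 0.285 in RA mice 1 to 4 (log2 difference 0.55, SE 0.09, limma adjusted p = 0.0335). Mgmt, which removes alkyl groups from guanine, stood at 0.565, 0.597, 0.480 and 0.683 in CS and at 0.127, 0.199, 0.140 and 0.158 in RA mice (0.45, SE 0.06, adjusted p = 0.0220), the smallest adjusted p of all genes. Zmat3, an RNA-binding protein, stood at 0.407 ± 0.118 and 0.0895 ± 0.0353 (SD, n = 4 each). In club cells none of the 3 passed, and for none did the difference between the cell types pass (limma adjusted p = 0.390, 0.255 and 0.493).

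Cyp1b1 is a P450 induced through the aryl hydrocarbon receptor (AhR), which binds compounds of smoke. It was at 0.112, 0.186, 0.163 and 0.215 in CS mice 1 to 4 and at 0, 0.0236, 0.0437 and 0 in RA mice 1 to 4, a low level throughout. The log2 difference was 0.20 (SE 0.03, limma adjusted p = 0.0270). Cyp1b1 was above 0 in 37.8% of goblet cells of CS mice and in 4.27% of those of RA mice, as means over mice, so that it entered the test only through the CS mice, and its call is given as a description. At least 1 UMI of it was found in 25 of 200 goblet cells of CS mice, 7 of 309 goblet cells of RA mice and 0 of 2334 B cells, which allows up to 0.129% of B cells with a UMI. B cells are too shallow for this to give the background of goblet cells. In club cells Cyp1b1 stood at 0.216, 0.405, 0.260 and 0.309 in CS and 0.180, 0.107, 0.276 and 0.283 in RA mice, which overlapped (adjusted p of the difference between the cell types 0.813). Of the other 5 tested members of the AhR list, 0 passed, against 0.151% (higher) and 0.0251% (lower) of all genes. Cyp1a1 was at most 0.0614 in any mouse and was not tested.

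The promoters of Cyp1b1 and Nrarp are shown because their pathways act through known short elements, the AhR core GCGTG (or CACGC on the other strand) and the RBPJ site of Notch, GTGGGAA (or TTCCCAC). Both are the 250 bases before the RefSeq start site on build GRCm38.p6, with capitals for matches. In Cyp1b1 the RBPJ letters begin 162 bases and the AhR core 76 bases before the start. In Nrarp the capitals mark the E-box CACGTG, 108 bases before the start, and neither other element is in this window.
Cyp1b1, chr17:79715062-79715311, minus strand: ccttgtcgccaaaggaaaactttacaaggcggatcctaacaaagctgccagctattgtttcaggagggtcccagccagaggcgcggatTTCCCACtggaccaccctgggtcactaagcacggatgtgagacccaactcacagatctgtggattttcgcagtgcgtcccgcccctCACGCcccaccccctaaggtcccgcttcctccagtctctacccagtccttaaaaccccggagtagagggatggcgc
Nrarp, chr2:25180508-25180757, plus strand: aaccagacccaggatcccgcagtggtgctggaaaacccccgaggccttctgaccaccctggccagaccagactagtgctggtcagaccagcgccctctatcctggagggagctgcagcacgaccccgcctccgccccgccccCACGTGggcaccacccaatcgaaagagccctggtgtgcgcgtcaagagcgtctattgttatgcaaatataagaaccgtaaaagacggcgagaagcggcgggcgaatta
The AhR core was found in 32.4% of all 32851 promoters of 300 bases in the table, the RBPJ site in 6.38% and the E-box in 7.15%. Of the 21 genes past the test, 19 had 24 promoters there, and 14, 3 and 1 of the 24 held these elements. No matches overlapped each other in the windows shown. A match describes the letters only.

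Clock genes moved in both directions. Dbp, an output transcription factor of the clock, had 0.521, 0.374, 0.514 and 0.303 in CS mice 1 to 4 and 0.00867, 0.101, 0.0777 and 0.0850 in RA mice 1 to 4 (log2 difference 0.42, SE 0.06, limma adjusted p = 0.0224). Npas2, a partner of Arntl in the activating complex, had 0.194, 0.165, 0.270 and 0.329 in CS and 0.606, 1.62, 0.925 and 0.738 in RA mice (-0.65, SE 0.12, adjusted p = 0.0478). Both genes separated the groups completely. Rora, a nuclear receptor that acts on the clock gene Arntl, rose from 1.02 ± 0.222 in RA to 2.60 ± 0.316 in CS mice (SD, n = 4 each; log2 difference 0.84, SE 0.13, limma adjusted p = 0.0224). Of 9 tested clock output genes, 1 rose and none fell, against 0.151% and 0.0251% of all genes. The CS mice all lay above the RA mice in 3 (Dbp, Nr1d1 and Nr1d2), against 7.22% of all genes. The median log2 difference of the 9 was 0.20, or 0.69 with a pseudocount of 0.1, where that of all genes was 0.14. Of 5 tested clock genes of the opposite phase, 1 fell and none rose, against 0.0251% and 0.151% of all genes. The CS mice all lay below the RA mice in 4 (Arntl, Cry1, Nfil3 and Npas2), against 1.27% of all genes. The median log2 difference of the 5 was -0.18, or -0.91 with a pseudocount of 0.1. Cry1 passed as lower with the median difference set to 0, with a pseudocount of 0.1, with mice weighted by cell number and without RA mouse 1. Dbp passed in 13 of 20 alternatives, and not without CS mouse 1, CS mouse 3, RA mouse 3 or RA mouse 4, with mice of at least 40 goblet cells, with no filter or in thinned cells. Npas2 passed in 10 of the 20, and was kept by the omission of a single mouse only for RA mouse 1 and RA mouse 2. Nr1d2 lay just outside the threshold, at 0.569 ± 0.142 and 0.186 ± 0.0852 (SD, n = 4 each, limma adjusted p = 0.0521), and passed with a pseudocount of 0.1 and, with Nr1d1, with secreted proteins left out of the totals. Dbp also rose in club cells (log2 difference 0.51, adjusted p = 0.0173). The hour at which each lung was taken is not given in the sources used here.

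Cldn22, a claudin of tight junctions, stood at 0.103, 0.328, 0.228 and 0.397 in CS and at 0.645, 0.796, 0.794 and 0.729 in RA mice (log2 difference -0.47, SE 0.08, limma adjusted p = 0.0327). It was at most 0.0108 in club cells of any mouse. Cldn22 overlaps Wwc2 on the other strand, as Dbp does Sphk2, and whether the counting used strand is not given in the sources used here.

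The other genes that rose were Col23a1, Fhit, 9530026P05Rik, Dst, Bmx, Map3k20, Dglucy and Dnm3. Unspliced RNA is counted in the levels of all genes, and its part in these differences was not tested. Col23a1, which was far higher in club cells, stood in goblet cells at 1.42, 1.76, 1.5 and 2.12 in CS mice and at 0.279, 0.798, 0.847 and 0.663 in RA mice (log2 difference 0.72, SE 0.13, limma adjusted p = 0.0391). In club cells its log2 difference was -0.01, and the difference between the cell types did not pass (adjusted p = 0.453). Col23a1 marks club against goblet cells, so that smoke and where the labels divide the types cannot be told apart for it. Fhit, Dst, Dglucy, Dbp, 9530026P05Rik and Cyp1b1 were also lower in goblet than in club cells in every mouse, while Gp2 and Cldn22 were higher in every mouse. The part of the labels in their differences was not tested. Fhit, a dinucleotide hydrolase at a fragile site, rose by 0.61 on the log2 scale (adjusted p = 0.0478) and Dst, a cytoskeletal linker, by 0.46 (adjusted p = 0.0478). 9530026P05Rik, an antisense transcript that overlaps Adamts9, rose by 0.55 in goblet cells and by 0.45 in club cells (adjusted p = 0.0224 and 0.0476). Just outside the threshold after Nr1d2 were Lrg1, Snhg11 (adjusted p = 0.0573) and Pdpn (-0.72, adjusted p = 0.0579).

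These calls depended on single mice. The count was 4 without CS mouse 1, 7 without CS mouse 2, 1 without CS mouse 3, 7 without CS mouse 4, 47 without RA mouse 1 (23 higher and 24 lower, with all 21 among them), 24 without RA mouse 2, 7 without RA mouse 3 and 0 without RA mouse 4, where 1111 genes had an unadjusted limma p under 0.05. With cells thinned to 2000 UMIs, 0 passed and 683 had an unadjusted p under 0.05, and with secreted proteins left out of the totals, 65 passed (39 higher, 26 lower), again with all 21 among them. Of 20 such alternatives, Mgmt passed in 16, Gp2, Notch3 and 9530026P05Rik in 14, and Dst in 4.

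None of 22 tested mucins and mucus-making genes passed, with a median log2 difference of 0.08. Over all genes tested, 0.151% were called higher and 0.0251% lower. At such shares, 0 calls in this list or in those below do not set a list apart from other genes. With a pseudocount of 0.1, which weighs down low genes less, the median was 0.26, against 0.14 for all genes. In 3 of the 22, against 7.22% of all genes, the CS mice all lay above the RA mice (Spdef, Ern2 and Creb3l4). Muc5b was at 17.1, 18.1, 13.4 and 13.4 in CS mice 1 to 4 and at 8.28, 15.1, 18.9 and 14.4 in RA mice 1 to 4, which overlapped (limma adjusted p = 0.830). Muc5ac, the irritation-linked mucin, was at 0.249, 0.802, 0.298 and 0.229 in CS and at 0.129, 0.134, 0.233 and 0.254 in RA mice (adjusted p = 0.392). Spdef was at 0.275 ± 0.0343 under smoke and 0.144 ± 0.0490 under room air (SD, n = 4 each, limma adjusted p = 0.236), with every CS mouse above every RA mouse. The same held without a call for Ern2, the stress sensor of mucous cells (0.251 ± 0.0650 against 0.109 ± 0.0358, SD, n = 4 each), and for Creb3l4. Clca1 rested on CS mouse 2, at 16.6, with 0 to 1.38 in the other 7 mice.

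Secreted defence proteins did not pass either. Of 22 tested, 0 passed, against 0.151% (higher) and 0.0251% (lower) of all genes, and the median log2 difference was 0.04. The sign of this median depended on the scaling, at -0.02 with secreted proteins left out of the totals, -0.03 on summed counts and -0.02 in thinned cells. Tff2 was at 11.2 ± 3.68 under smoke and 21.9 ± 5.37 under room air (SD, n = 4 each, limma adjusted p = 0.236). Bpifa1 was at 282, 157, 156 and 177 in CS and at 426, 296, 302 and 240 in RA mice (adjusted p = 0.131), with CS mouse 1 inside the RA range, and it passed as lower with mice weighted by cell number. In Reg3g and Lypd2, 2 of the 22 against 1.27% of all genes, the CS mice all lay below the RA mice, at 27.0 ± 7.14 against 47.2 ± 17.1 and 10.5 ± 2.0 against 16.5 ± 1.59 (SD, n = 4 each). The leading markers Scgb3a2 and Bpifb1 gave limma adjusted p values of 0.863 and 0.459. The copper-binding ceruloplasmin (Cp) was above in every CS mouse, at 12.6 ± 1.61 against 8.44 ± 1.61 (SD, n = 4 each, limma adjusted p = 0.375).

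Of 25 tested phase I enzymes, Cyp1b1 is described above and none of the others passed, against 0.151% (higher) and 0.0251% (lower) of all genes. The CS mice all lay above the RA mice in 4 (Adh7, Cyp1b1, Ephx1 and Por), against 7.22% of all genes, and below in 3 (Cyb5a, Cyp4a12b and Cyp4b1), against 1.27%. Por, the electron donor of P450 enzymes, was at 14.1 ± 1.52 under smoke and 8.47 ± 2.64 under room air (SD, n = 4 each), and Cyp4b1 at 2.51 ± 0.124 and 4.51 ± 1.07, each without overlap and without passing (limma adjusted p = 0.317 and 0.185). None of 41 genes of the NRF2 and glutathione list passed, against 0.151% (higher) and 0.0251% (lower) of all genes. The median of this list was -0.05, with 26 negative. The median was -0.14, with 31 negative, when secreted proteins were left out of the totals, and -0.10 without RA mouse 1. In 3 of the 41, against 1.27% of all genes, the CS mice all lay below the RA mice. The glutathione transferase Gsta3 was at 2.77 ± 0.385 under smoke and 4.6 ± 0.415 under room air, the peroxiredoxin Prdx1 at 5.92 ± 0.713 and 8.01 ± 0.538, and Prdx6 at 8.08 ± 1.06 and 10.9 ± 0.312 (SD, n = 4 each, limma adjusted p = 0.198, 0.456 and 0.474). Nqo1, a standard NRF2 target, was at 0.172 ± 0.103 and 0.164 ± 0.139 (SD, n = 4 each).

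No chaperone passed, against 0.151% (higher) and 0.0251% (lower) of all genes, and most had a negative log2 difference. None of 22 tested genes of the endoplasmic reticulum list passed and 20 had a negative log2 difference, with a median of -0.14. None of 18 heat shock and cytosolic chaperones passed, 16 were negative and the median was -0.15. In 4 of the 18 (Hsp90ab1, Hspa8, Hspb1 and Hspe1), against 1.27% of all genes, the CS mice all lay below the RA mice. Of the 22 endoplasmic reticulum genes, 1 lay below in this way (Hspa5) and 1 above (Ern2, against 7.22%). Hspb1, a small heat shock protein, was at 1.92, 3.05, 2.64 and 1.51 in CS mice 1 to 4 and at 5.85, 3.83, 8.75 and 9.36 in RA mice 1 to 4, with no overlap (log2 difference -1.24, SE 0.25, limma adjusted p = 0.0764). Hspa8, the constitutive cytosolic chaperone, was at 3.11 ± 0.617 and 7.51 ± 2.40 (SD, n = 4 each, limma adjusted p = 0.126), and it fell in club cells (log2 difference -1.19, adjusted p = 0.0225). With secreted proteins left out of the totals, Hspa5, Creld2, Hsp90ab1, Hspa8, Hspb1 and Hspd1 passed as lower, and without RA mouse 1 so did Hspa5, Creld2, Manf, Sdf2l1, Hspa8 and Hspd1. Hspb1 also passed as lower with a pseudocount of 0.1. The median of both lists was negative under each of 9 other scalings and subsets of mice. That of the heat shock list was -0.32 without CS mouse 2 and with secreted proteins left out of the totals, and that of the endoplasmic reticulum list was -0.27 in the latter.

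Immune and transport genes gave no further calls, against 0.151% (higher) and 0.0251% (lower) of all genes. The 11 tested MHC and antigen processing genes all had a positive log2 difference with a median of 0.16, and 0 passed. With a pseudocount of 0.1 this median was 0.62, against 0.14 for all genes. Without CS mouse 3 the median was 0.08, with 9 positive and 2 negative. H2-DMa, which loads class II molecules, was at 0.134 ± 0.0924 under smoke and 0.0470 ± 0.010 under room air, and the immunoproteasome subunit Psmb9 at 0.240 ± 0.0973 and 0.106 ± 0.0352, both without overlap (SD, n = 4 each, limma adjusted p = 0.334 and 0.266), or 2 of 11 against 7.22% of all genes. H2-K1, a class I gene, was highest in CS mouse 3, at 13.5 against 2.95 to 5.91 in the other 7 mice. Of 14 interferon response genes, 11 cytokines and chemokines, 18 immediate early genes and 10 corticosteroid targets tested, 0 passed. Of 16 ion and fluid transport genes, 0 passed, and in 3 (Ano1, Aqp3 and Kcnq1), against 7.22% of all genes, the CS mice all lay above the RA mice. The chloride channel Ano1 was at 1.39 ± 0.116 under smoke and 0.757 ± 0.238 under room air (SD, n = 4 each, limma adjusted p = 0.123). eGFP and tdTomato did not pass (adjusted p = 0.365 and 0.814).

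**Figure D4:**
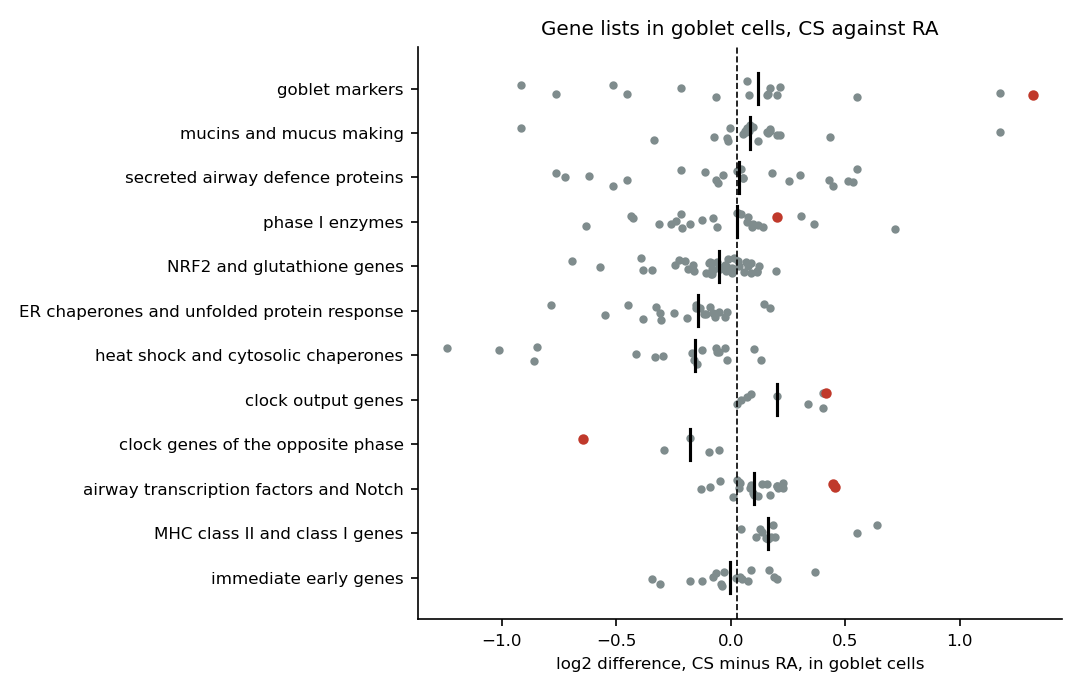
Log2 difference of CS minus RA in goblet cells (horizontal axis) for the tested members of 12 gene lists, with genes past the test in red, the list median as a bar and the median of all 11946 genes as a dashed line. The chaperone lists lie mostly left of the line and the clock output genes right of it, while Gp2, Cyp1b1, Dbp, Npas2, Notch3 and Nrarp are the red points.

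The last question was whether goblet cells differed from club cells of the same mice in their response. In club cells, 25 of 11736 genes passed (0.213%), 9 higher and 16 lower in CS. On summed counts 22 passed, 13 higher and 9 lower, with 11 of the 25 among them, and with secreted proteins left out of the totals 6 were higher and 28 lower. Both cell types come from the same 8 mice, and the difference of their differences was tested within mice over 11251 genes. The outcome rested on how limma modelled the spread between mice. With the spread trended on the mean level of both types, a choice made after the standard errors were seen, 4 genes passed and 706 had an unadjusted p under 0.05. With the spread trended on the mean difference, or with no trend, 0 genes passed, with 667 and 659 at an unadjusted limma p under 0.05. Of the 4, Scgb3a1, Erbb4 and Ptprd are described with all 3 adjusted p values.

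Scgb3a1 had the largest such difference. In club cells it stood at 5.04, 4.82, 3.70 and 4.01 in CS mice 1 to 4 and at 61.4, 25, 11.6 and 30.7 in RA mice 1 to 4, a fall (log2 difference -2.40, limma adjusted p = 0.0276). In goblet cells it stood at 471, 608, 346 and 438 in CS and at 1127, 561, 506 and 477 in RA mice, which overlapped (-0.45, adjusted p = 0.404). The goblet minus club difference was 1.95 (SE 0.24, adjusted p = 0.00330, and 0.761 or 0.178 under the other trends). Muc5b took the same form. In club cells it was at 0.288, 0.923, 0.552 and 0.526 in CS and at 1.29, 2.72, 2.28 and 3.60 in RA mice (-1.11, adjusted p = 0.0329), and its goblet minus club difference of 1.27 did not pass (adjusted p = 0.0772). Both genes mark goblet against club cells, so that their level in club cells follows where the labels divide the types. Muc5b or Bpifb1 reached 1 UMI in 14.3%, 16.8%, 17.6% and 24.5% of club cells in CS mice 1 to 4 and in 20.7%, 33.7%, 33.0% and 31.6% in RA mice 1 to 4. Smoke and this division cannot be told apart for these genes.

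Erbb4, a receptor of the epidermal growth factor family, was at 0.233, 0.404, 0.380 and 0.491 in club cells of CS mice and at 1.40, 1.24, 1.16 and 1.16 in those of RA mice (log2 difference -0.70, limma adjusted p = 0.00162). In goblet cells it was at 0.288, 0.158, 0.285 and 0.535 in CS and at 0.297, 0.483, 0.312 and 0.269 in RA mice, with no separation. The goblet minus club difference was 0.67 (SE 0.09, adjusted p = 0.00670, and 0.189 or 0.178 under the other trends). Ptprd, a receptor tyrosine phosphatase, was at 2.08, 2.06, 1.48 and 2.35 in goblet cells of CS mice and at 0.831, 0.971, 1.41 and 0.735 in those of RA mice. Within goblet cells alone Ptprd did not pass. Its goblet minus club difference was 0.72 (SE 0.11, limma adjusted p = 0.0124, and 0.219 or 0.178 under the other trends). Without CS mouse 1, Erbb4 and Ptprd no longer passed (limma adjusted p = 0.0787 and 0.109), nor with mice of at least 40 goblet cells (0.193 and 0.447) or with no filter (0.505 and 0.515), and Erbb4 was lost with a pseudocount of 0.1 (0.0514). Ptprd was also lost without CS mouse 2 (limma adjusted p = 0.0747), RA mouse 1 (0.0626) or RA mouse 4 (0.0822). On summed counts its difference was 0.35 (limma adjusted p = 0.382), and that of Erbb4 was 0.39 and passed (limma adjusted p = 0.0198).

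**Figure D5:**
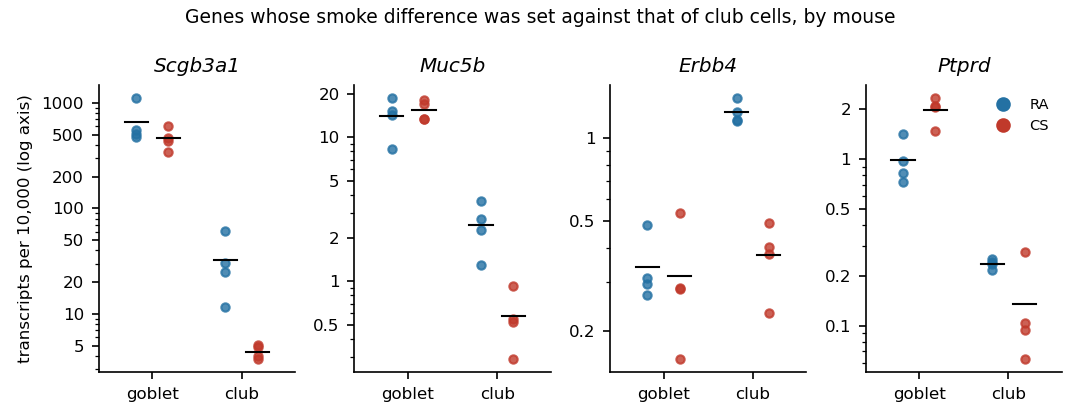
Level in transcripts per 10000 (vertical log axes) of 4 genes in goblet and club cells, with RA mice in blue, CS mice in red and group means as bars. Scgb3a1 and Muc5b separate by exposure in club cells and overlap in goblet cells, Erbb4 separates in club cells, and Ptprd separates in goblet cells.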

How the data were processed

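Single cells of mouse lung were profiled with 10x Genomics 3' kits (v3 chemistry). The submitters' processing notes name STAR 2.7.3a with STARsolo and the build GRCm38.p6. The deposited matrix holds estimated counts. The authors counted UMIs of spliced and of unspliced RNA together. They dropped cells of low depth, of high mitochondrial content or with a low share of unspliced transcripts. They subtracted free RNA with SoupX, so that only 1.28% of the values are whole (within 1e-06). Spliced and unspliced RNA cannot be separated in these values. The authors also deposited the percent of mitochondrial transcripts of each cell, which is over the study's stated limit of 5% in 1574 of the 40074 kept cells and in 26 goblet cells; these were kept. Cell types are the authors' labels, and cells labelled multiplet or cell cycle were left out.

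Each cell was scaled to 10000 transcripts, and the mean over the goblet cells of a mouse was its value. Genes found in at least 10% of the goblet cells of either exposure were tested with limma 3.58.1 (R 4.3.3, moderated test with a trended spread, two-sided) on log2(level + 1), a scale that understates changes of low genes, with Benjamini-Hochberg adjustment over all genes tested and a threshold of 0.05. All 8 mice had at least 20 goblet cells. No count model was used, since the values are not whole counts. Club cells were fitted alike, and the goblet minus club difference within each mouse was fitted with the spread trended on the mean level, a setting that the planned design did not name and that was chosen after the standard errors were seen. For shares and sums, all 70 assignments of the mice were enumerated in a two-sided exact permutation test. Goblet and other types were compared without a test. The procedure was tested on simulated data.

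The genes named were the 10 with the largest rise and the 10 with the largest fall among those past the test without overlap, the 12 with the largest difference from club cells in either direction, the 15 with the highest ratio to the next type, and the extremes of the gene lists; further genes past the test, genes close to the threshold and genes of the Lyz2 contrast were chosen after their values were seen. The cells, lists and tests were chosen with earlier results of these data known. Alternatives were another pseudocount, other gene filters, summed counts, other cell minimums, weights by cell number, other totals, thinning, subsets of cells, a lane term and leaving out each mouse. Promoters are from RefSeq. The values of 1 gene that passed are not reported here; the counts include it. Counting error within a mouse is part of the spread between mice.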

Additional observations from a re-analysis of the deposited data

Results flagged for a closer look

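In 187 groups of 4 mice, the highest or lowest value was compared with the others by Dixon's ratio, and 12 stood apart, where chance gives about 1 in 20. Among RA mice, RA mouse 1 was highest in Scgb3a1 (1127), summed goblet markers (1524), Cry1 (0.248) and Cyp1a1 (0.0614). Among CS mice, CS mouse 2 was highest in Clca1 (16.6), Retnla (49.2) and Muc5ac (0.802), CS mouse 1 was highest in Bpifa1 (282) and lowest in Spdef (0.224) and Jag2 (0.0454), CS mouse 3 was highest in Ahrr (0.00785), a level near that of single UMIs, and CS mouse 4 was lowest in Hspa8 (2.20). These are transcripts per 10000 in goblet cells.

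The difference between CS and RA mice was unlike in goblet and club cells by a limma test of the difference itself for Scgb3a1 (1.95 on the log2 scale, goblet minus club), Ptprd (0.72) and Erbb4 (0.67). These calls were lost under the other trends of the spread, and for Scgb3a1 smoke cannot be told apart from where the labels divide goblet from club cells.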

How the results depend on the processing

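Each of the 21 genes in goblet cells kept its direction under every alternative tried, with 205 values past the threshold and 215 not, leaving out a minimum of 10 cells per mouse, which every mouse met. The groups did not overlap in these genes. Their direction therefore could not turn with a mouse left out, another pseudocount or another gene filter, and it is no support for the calls. The count of 21 (18 higher, 3 lower) became 35 (25 higher, 10 lower) with a pseudocount of 0.1, which moved the median of all genes from 0.03 to 0.14. It was 38 (28 higher, 10 lower) with genes in at least 25% of cells and 0 with no filter (2027 genes at an unadjusted limma p under 0.05). With mice of at least 40 goblet cells it was 1, a lower gene that is not among the 21. Totals without secreted proteins gave 65 (39 higher, 26 lower). The median difference set to 0 gave 15 (9 higher, 6 lower), and thinned cells gave 0. Summed counts gave 15 (12 higher, 3 lower), with 11 of the 21 among them. Weights by cell number gave 27 (18 higher, 9 lower), with 18 of the 21 among them. The count was 18 (14 higher, 4 lower) in cells with few transcripts of other types, an alternative chosen after seeing the data, with 13 of the 21 among them. Leaving out 1 mouse gave 0 to 47 (23 higher, 24 lower). The club count of 25 (9 higher, 16 lower) was 22 on summed counts (13 higher, 9 lower) and 34 with totals without secreted proteins (6 higher, 28 lower), and became 0 with no filter (1830 at an unadjusted p under 0.05), 4 with mice of at least 40 goblet cells and 15 in thinned cells, and 1 to 21 with 1 mouse left out (1 without CS mouse 1). The goblet minus club count of 4 became 0 under both other trends and with no filter (1224 at an unadjusted p under 0.05), 8 with a pseudocount of 0.1, and 1 with mice of at least 40 goblet cells. Leaving out 1 mouse gave 1 (without CS mouse 1) to 7 (without RA mouse 2). The difference in the share of goblet cells ran from -0.925 to -0.157 percentage points with 1 mouse left out, that in summed goblet markers from -299.7 to -86.2 and that in secreted defence proteins from -6.76 to -0.546 percentage points. The difference in summed club markers ran from -269.9 to 91.7 and turned positive without RA mouse 1. The cause was not tested. Each sequencing lane held 1 CS and 1 RA mouse, whose deviations from their group means correlated at -0.124 to 0.0899, so that lanes were not taken to pair the mice. With the lane as a block, 17 genes passed in goblet cells (14 of the 21), 17 in club cells (16 of the 25) and 4 in the goblet minus club comparison. A planned limit of 1 UMI of other types left 3 to 36 cells per mouse and was not run. Depth limits the thinned fit, and 23 to 137 goblet cells per mouse limit the levels of genes held by few cells.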
